A study of Mus musculus with 1536 samples.

Results

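MHC class II genes and co-inhibitory ligands were examined gene by gene in adult mouse nasopharyngeal lymphatic endothelial cells (LECs). The 9 genes were chosen by symbol: the antigen-binding chains *H2-Aa*, *H2-Ab1* and *H2-Eb1*, the peptide-loading chains *H2-DMa* and *H2-DMb1*, the invariant chain *Cd74*, the transactivator *Ciita* and the ligands *Cd274* and *Pdcd1lg2*. Of these, 8 have a row among the 23168 genes of the adult matrix and were described over all adult cells, and *Pdcd1lg2* was not analysed here. Cells with a *Cd74* value above 0, which were 13.9% of the adult cells, were set against those without.

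The cells were CD31+ PDPN+ cells sorted from the nasopharynx of c57bl/6 mice aged 10 to 12 weeks, with tissue of 30 animals of both sexes pooled, and were sequenced by Smart-seq3, a plate-based single-cell method. Neither the labels nor the column names tie a cell to a mouse or a plate, so all cells are 1 sample and nothing was tested between cells. Intervals in brackets are exact Clopper-Pearson 95% intervals of a share of cells, and they cover counting error only. Where a count was 0, the limit given is a share of 3 counts, which is not a bound of such an interval. SDs over cells describe these cells only.

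Class II molecules display peptides from the endocytic route to CD4+ T cells. The alpha and beta chains assemble in the endoplasmic reticulum around the invariant chain, whose remnant is later exchanged for peptide with the help of H2-DM, and the genes are switched on together by CIITA, a co-activator that binds factors sitting on the X and Y boxes of their promoters. LECs of lymph nodes are known for low class II levels, part of it taken over from dendritic cells as protein, and for PD-L1, the product of *Cd274*, which restrains T cells through PD-1.

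Promoter windows of RefSeq (GRCm38.p6, 250 bases before to 50 bases after a gene start) matched 6 of the 9 genes, in 7 windows. These stretches are shown because they hold the box letters of 3 class II promoters and, for contrast, the interferon-type letters of *Cd274*. They are written 5′ to 3′ on the strand of the gene. Capitals mark the X box core ACNGATG and the Y box core ATTGG in the first pair, the longer Y box CTGATTGG in *H2-Aa*, and GAAANNGAA, read on the opposite strand, in *Cd274*.
H2-Eb1, chr17:34305767-34305824, plus strand: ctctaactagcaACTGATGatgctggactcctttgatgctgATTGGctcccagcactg
H2-DMb1, chr17:34153088-34153146, plus strand: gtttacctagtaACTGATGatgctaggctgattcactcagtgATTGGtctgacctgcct
H2-Aa, chr17:34287855-34287906, minus strand: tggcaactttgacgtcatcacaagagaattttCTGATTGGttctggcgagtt
Cd274, chr19:29367341-29367391, plus strand: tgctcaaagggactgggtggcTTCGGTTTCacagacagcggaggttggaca
The cores started 29 bases apart in *H2-Eb1* and 30 bases apart in *H2-DMb1*. Both strands of 32851 RefSeq windows were searched. The X box core was present in 9.85% of them, the Y box core in 37.4%, the longer Y box, which contains the core, in 4.097%, and an X box core followed on the same strand by a Y box core starting 15 to 40 bases later in 0.198%. GAAANNGAA was present in 8.56%. The windows of *H2-Aa*, *H2-DMa*, *Cd274* and *Pdcd1lg2* did not hold the X then Y arrangement, while those of *H2-DMb2* and *H2-Eb2*, from the list of other class II genes, did and those of *H2-Oa* and *H2-Ob* did not. The *H2-DMa* windows, at 34122582 to 34122881 and 34125268 to 34125567, lie past the gene start given below, 34119541. They describe those stretches only. A match describes letters only. The other searched motifs, TGNGTCA and TTCNNNGAA, were present in 15.4% and 8.30% of all windows.

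The depth ran from 7433 to 3524358 reads per cell (median 350746), and from 2001 to 7236 genes were found per cell. The sort label held: *Flt4* was found in 99.8% of the cells, *Cdh5* in 99.2% and *Prox1* in 97.7%. *Ptprc*, which encodes the leukocyte antigen CD45, had no read in any cell. Even so, 2 wells stood apart, with 9 and 7 of the 10 listed immune markers and with 8 of 8 LEC markers each. They held *Lyz2*, a lysozyme gene of myeloid cells, at 5.53 and 3.31 on the natural-log scale. The main class II values are also given without them, and whether these wells held more than 1 cell was not tested.

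The 5 chain genes lie together on chromosome 17 of GRCm38, with *H2-DMa* at 34119541 to 34139101, *H2-DMb1* at 34153072 to 34160230, *H2-Ab1* at 34257689 to 34269419, *H2-Aa* at 34282744 to 34287823 and *H2-Eb1* at 34305867 to 34316674. The others are apart, *Cd74* on chromosome 18 (60803848 to 60812652), *Ciita* on chromosome 16 (10480059 to 10528418) and *Cd274* on chromosome 19 (29367455 to 29388095). All but *H2-Aa* are on the plus strand.

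Class II transcripts were found in a minority of the LECs. *Cd74* was found in 13.9% (11.6 to 16.4) of the cells. *H2-Ab1* followed with 77 cells, 9.14% (7.28 to 11.3), *H2-Aa* with 54 cells, 6.41% (4.85 to 8.29), and *H2-Eb1* with 50 cells, 5.94% (4.44 to 7.75). The loading genes were rarer, with *H2-DMa* in 26 cells, 3.09% (2.03 to 4.49), and *H2-DMb1* in 7 cells, 0.831% (0.335 to 1.71). *Ciita* was found in 6 cells, 0.713% (0.262 to 1.54). *Cd274* stood beside *Cd74*, with 12.5% (10.3 to 14.9). The intervals of *Cd74* and *Cd274* overlapped, as did those of the neighbouring pairs *Cd274* and *H2-Ab1*, *H2-Ab1* and *H2-Aa*, *H2-Aa* and *H2-Eb1*, *H2-Eb1* and *H2-DMa*, and *H2-DMb1* and *Ciita*. None of the 6 class II genes other than *Ciita* was found in 73.5% of the cells, 1 of them in 19.4%, and all 6 in 2 cells, 1 of them among the 2 wells with immune markers.

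**Figure D1:**
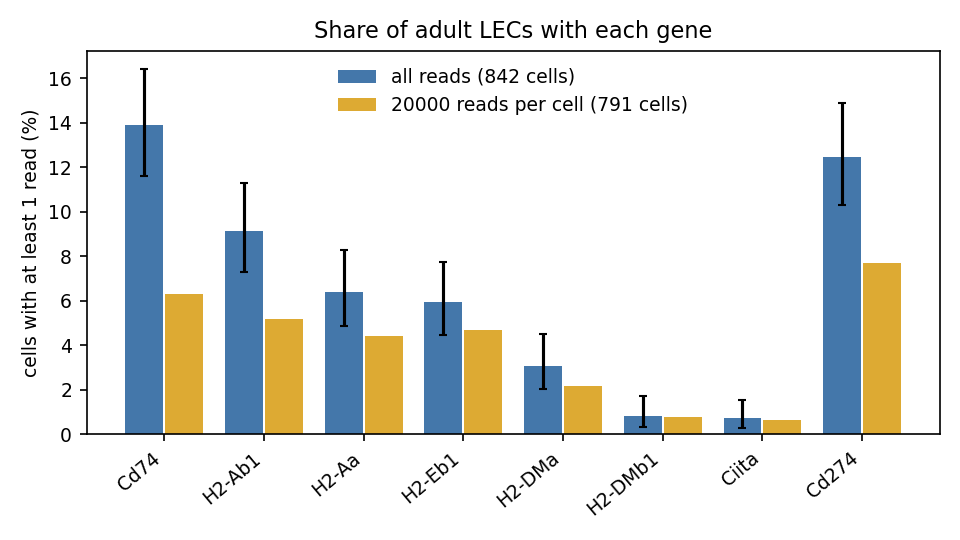
Share of the adult LECs with at least 1 read of each gene (blue bars, with 95% exact intervals), and the same after each cell was thinned to 20000 reads (yellow bars, shallower cells left out). *Cd74* dropped from 13.9% to 6.32% on thinning and *Cd274* from 12.5% to 7.71%, with *Cd274* then the higher share of the pair.

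The *Cd74* cells fell over a very wide range of levels. In cells with it, the natural log of 1 plus reads per 10000 ran from 0.00493 through a median of 0.180 to 5.79, or from 1 through 2 to 6412 reads. Of these cells, 62 had only 1 or 2 reads, 12 of them a single read, and 37 had a value above 1. *H2-Ab1* ran from 0.0117 through 0.608 to 5.17 in cells with it, with 29 above 1. *H2-Aa* ran from 0.0117 through 0.716 to 4.61, with 18 above 1. *H2-Eb1* ran from 0.00797 through 0.798 to 4.33, with 20 above 1. The *Cd74* median thus lay below those of the 3 chains, and its highest cell above theirs. Over all cells the mean *Cd74* value was 0.111 ± 0.495 (SD). *Cd274* had a narrower range, from 0.00680 through 0.384 to 1.88, with 14 cells above 1 and a median of 16 reads.

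A single well held a large part of the class II sums. The well with most *Cd74*, one of those with many immune markers, held 45.8% of the summed *Cd74* level, 44.3% of that of *H2-Ab1*, 46.3% of *H2-Aa* and 39.6% of *H2-Eb1*. No cell held more than 6.52% of the *Cd274* sum. Per kilobase of exon, the mean level in reads per 10000 was 0.505 for *Cd74*, 0.183 for *H2-Ab1*, 0.115 for *H2-Eb1*, 0.0670 for *H2-Aa*, 0.0280 for *Cd274*, 0.0153 for *H2-DMa*, 0.00836 for *H2-DMb1* and 0.000293 for *Ciita*. For every one of these 8 genes the SD over cells was larger than the mean. Each gene was at 0 in most cells, so this SD cannot tell whether neighbours in this order differ, which was not tested. Without the 2 wells the mean level per kilobase was 0.252 for *Cd74*, 0.0970 for *H2-Ab1*, 0.0631 for *H2-Eb1*, 0.0310 for *H2-Aa* and 0.0280 for *Cd274*, in the same order.

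The shares of *Cd74* and *Cd274* were higher in deeper cells. With the cells in 4 groups by total reads, from the group with fewest to that with most, *Cd74* went from 9.95% (6.27 to 14.8) to 18.5% (13.5 to 24.4) and *Cd274* from 7.58% (4.40 to 12.02) to 18.01% (13.1 to 23.9). The intervals overlapped for *Cd74* and not for *Cd274*. Between the same groups, *H2-Ab1* went from 7.58% (4.40 to 12.02) to 12.8% (8.605 to 18.1), *H2-Aa* from 6.64% to 6.16% and *H2-Eb1* from 6.64% (3.67 to 10.9) to 4.27% (1.97 to 7.94). After thinning to 20000 reads, *H2-Aa*, *H2-Ab1* and *H2-Eb1* were found in 4.42%, 5.18% and 4.68% of the cells.

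The class II genes were found together. In cells with *Cd74*, *H2-Ab1* was found in 30 cells, or 25.6% (18.02 to 34.5), against 47 cells, or 6.48% (4.80 to 8.53), in cells without. *H2-Aa* was found in 18.8% (12.2 to 27.1) against 4.41% (3.04 to 6.17). *H2-Eb1* was found in 17.1% (10.8 to 25.2) against 4.14% (2.81 to 5.85). These are the genes of the beta and alpha chains of I-A and of the beta chain of I-E, and for each of the 3 the intervals did not overlap. *H2-Ea*, the gene of the I-E alpha chain, has no row in the matrix, so these shares do not show that I-E was formed. Without the 2 wells, the shares in cells with *Cd74* were 24.3% (16.8 to 33.2) for *H2-Ab1*, 17.4% (10.96 to 25.6) for *H2-Aa* and 15.7% (9.55 to 23.6) for *H2-Eb1*.

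The loading genes showed the same pattern at lower shares. *H2-DMa* was found in 12 cells with *Cd74*, 10.3% (5.41 to 17.2), and in 14 cells without, 1.93% (1.06 to 3.22). All 7 cells with *H2-DMb1* also had *Cd74*, 5.98% (2.44 to 11.9), and 0 cells without *Cd74* had it, which allows a share of up to 0.414%. Without the 2 wells, *H2-DMa* was found in 10 cells with *Cd74*, 8.70% (4.25 to 15.4), and *H2-DMb1* in 6, 5.22% (1.94 to 11.01).

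*Ciita* and *Cd274* were not separated in this way. *Ciita* was found in 1 cell with *Cd74*, 0.855% (0.0216 to 4.67), and in 5 cells without, 0.690% (0.224 to 1.60). *Cd274* was found in 17.9% (11.5 to 26.1) of cells with *Cd74* and in 11.6% (9.35 to 14.1) of cells without, with overlapping intervals. All 7 members were found in a higher share of the cells with *Cd74*, but so were 63.3% of the 21454 genes found in at least 3 cells. The cells with *Cd74* had more reads (median 486643 against 334461), whose part in these shares was not tested. Of the 6 members found on both sides, which leaves out *H2-DMb1*, 4 reached a share at least 2 times as high, against 12.1% of all genes. The median ratio of shares was 4.04 over these 6 and 1.07 over all genes. With the 2 wells left out it was 3.77 over the 6. All genes here include those with no read in cells without *Cd74*. They also include widely found genes, which cannot reach a ratio of 2. Genes as sparse as the members were not compared apart.

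The cells with most *Cd74* carried the pattern, and they were not the deepest. In the 37 cells with a *Cd74* value above 1, *H2-Ab1* was found in 48.6% (31.9 to 65.6), *H2-Eb1* in 43.2% (27.1 to 60.5), *H2-Aa* in 37.8% (22.5 to 55.2), *H2-DMa* in 24.3% (11.8 to 41.2) and *H2-DMb1* in 13.5% (4.54 to 28.8). Their median was 176638 reads. In the 80 cells with *Cd74* at lower values, with a median of 682764 reads, *H2-Ab1* was found in 15% (7.998 to 24.7), *H2-Aa* in 10% (4.42 to 18.8) and *H2-Eb1* in 5% (1.38 to 12.3), and each interval overlapped that of the cells without *Cd74*. *Ciita* was found in 0 of the 37 cells, which by the limit of 3 counts allows a share of up to 8.11%. Leaving out the 2 wells, *H2-Ab1* was found in 45.7%, *H2-Eb1* in 40% and *H2-Aa* in 34.3% of the 35 cells left.

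**Figure D2:**
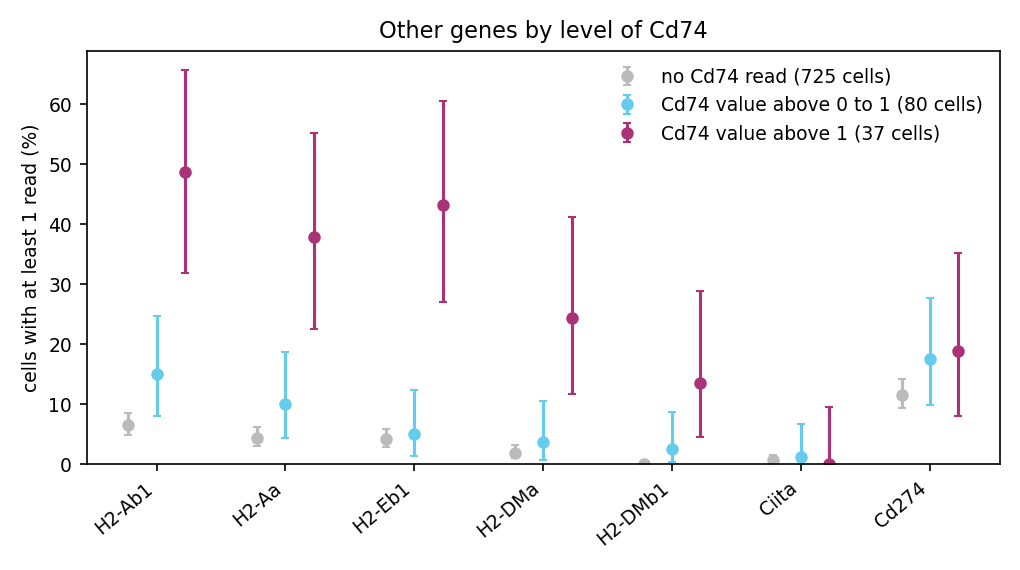
Share of cells with at least 1 read of each other gene, for cells without *Cd74* (grey), with a *Cd74* value above 0 to 1 (light blue) and above 1 (purple), with 95% exact intervals. The 5 class II genes are found most often at *Cd74* above 1, from 13.5% for *H2-DMb1* to 48.6% for *H2-Ab1*, while the 3 intervals of *Cd274* overlap.

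At equal depth the chains again had higher shares in cells with *Cd74*. Thinning every cell to 20000 reads also changed which cells counted as having *Cd74*, and 50 did, so these shares and those at full depth are of different cells. In them, *H2-Ab1* was found in 38% (24.7 to 52.8) against 2.97% (1.87 to 4.46) of the other cells. *H2-Aa* was found in 34% against 2.43%, and *H2-Eb1* in 30% against 2.97%. The 50 cells include the 2 wells, and in the other 48 the shares were 35.4% (22.2 to 50.5), 31.2% (18.7 to 46.3) and 27.1% (15.3 to 41.8). *Cd274* was found in 16% (7.17 to 29.1) against 7.15% (5.40 to 9.25), with overlapping intervals.

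Mean levels of the class II genes were higher in cells with *Cd74* as well. The log2 ratio of the mean level in cells with *Cd74* over that in cells without, with a pseudocount of 0.1 reads per 10000, was 4.07 for *H2-Ab1*, 3.43 for *H2-Aa*, 2.96 for *H2-Eb1*, 1.10 for *H2-DMa*, 0.03 for *Ciita* and -0.04 for *Cd274*. *H2-DMb1* had 1.01, a value set by the pseudocount because all cells without *Cd74* were at 0. Of the 6 members found on both sides, 4 were at least 2-fold higher and none 2-fold lower, where 0.186% of all genes were 2-fold higher and 0.0886% lower. The median over the 6 was 2.03, against -0.01 over all genes. Once the 2 wells were left out, the ratios were 2.997 for *H2-Ab1*, 2.09 for *H2-Aa*, 1.78 for *H2-Eb1* and 0.47 for *H2-DMa*, so that 3 of the 6 members stayed 2-fold higher, with a median of 1.12, where 0.0839% of all genes were higher and 0.112% lower.

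The 3 antigen-binding chains accumulated in the same cells. None of them was found in 83.5% of the cells, 1 in 12.8%, 2 in 20 cells and all 3 in 11 cells. The share of these cells that had *Cd74* was 10.7% (8.48 to 13.2) with none, 20.4% (13.2 to 29.2) with 1, 50% (27.2 to 72.8) with 2 and 90.9% (58.7 to 99.8) with 3. The 2 wells had all 3 chains, and of the other 9 such cells 8 had *Cd74*, 88.9% (51.8 to 99.7). Pearson's r across all cells, which share depth and the 2 wells, was 0.64 between *Cd74* and *H2-Ab1* and 0.69 between *H2-Ab1* and *H2-Eb1*, and without the 2 wells 0.53 and 0.59. Between *Cd74* and *Cd274* it was 0.04. Conversely, 47 of the 77 cells with *H2-Ab1* had no *Cd74* read, with values in them of up to 2.06.

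**Figure D3:**
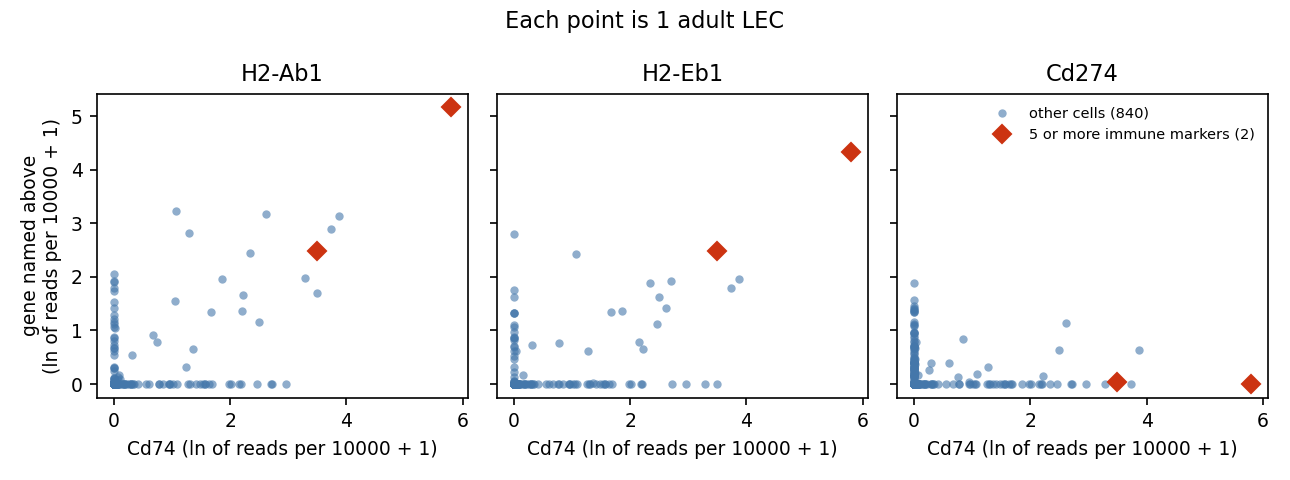
Natural-log value of *H2-Ab1*, *H2-Eb1* and *Cd274* (y axis) against that of *Cd74* (x axis), with each point 1 cell and red diamonds for the 2 wells with at least 5 immune markers. Several cells other than the diamonds hold *Cd74* and a chain gene at values above 1. For each gene shown, most cells with it lie at a *Cd74* value of 0, as do most of all cells. Lying at 0 therefore does not set *Cd274* apart from the chain genes.

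The 10 cells with most *Cd74* differed in their other class II genes. The first and the fourth were the 2 wells with immune markers. The second had *Cd74* at 3.87, *H2-Ab1* at 3.14, *H2-Aa* at 2.97, *H2-Eb1* at 1.97, *H2-DMb1* at 1.51 and *H2-DMa* at 0.63, with none of the 10 immune markers, *Prox1* at 1.29 and *Stab2* at 3.15. The third had *Cd74* at 3.73, *H2-Ab1* at 2.90 and *H2-Aa* at 2.45, with *Prox1* at 1.52. The seventh and the eighth had *Cd74* at 2.97 and 2.72 and no read of the other 5 class II genes, and the ninth had *H2-Eb1* alone of these, at 1.92. The other 8 cells held between 6 and 8 of the 8 LEC markers and between 0 and 4 of the immune markers. *Ciita* was at 0 in all 10.

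*Ciita* was found in too few cells for a pattern with the other members to be read. Its 6 cells had natural-log values of 0.763, 0.418, 0.268, 0.229, 0.0787 and 0.0446, none above 1. Of the 6, 2 had *H2-Ab1* and 1 had *Cd74*. The cell with most *Ciita* had *H2-Ab1* at 0.0117, and that with *Ciita* at 0.0787 had *H2-Ab1* at 1.79 and *H2-Eb1* at 1.75. Exons of *Ciita* overlap those of *Dexi* on the other strand, those of *H2-DMa* overlap *Brd2* and those of *Cd274* overlap *AC119228.1*, so without a stated strand setting reads of the partners cannot be told apart.

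The class II cells were spread unevenly over the clusters. Clustering gave 5 clusters with 36.8%, 35.6%, 16.5%, 5.82% and 5.23% of the cells. Cluster 3 was led by *Gm525*, *Aqp1* and *Stab2* and was *Ptx3*+ capillary-like, with 6 of 6 markers raised. *Cd74* was found there in 37 cells, 26.6% (19.5 to 34.8), against 80 of the other cells, 11.4% (9.13 to 13.96). *H2-Ab1* was found in 20.9% (14.4 to 28.6) against 6.83% (5.08 to 8.95), *H2-Eb1* in 16.5% (10.8 to 23.8) against 3.84% (2.55 to 5.54), and *H2-Aa* in 13.7% (8.43 to 20.5) against 4.98% (3.49 to 6.86). Of the 37 cells with *Cd74* above 1, 20 were in cluster 3, 14 in cluster 1 and 3 in cluster 2.

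Both wells with immune markers were in cluster 3, and without them *Cd74* was found in 25.5% and *H2-Ab1* in 19.7% of its cells. Of the members, 5 were among the variable genes that formed the clusters, so these shares describe the clusters. With all members left out of the clustering, the corresponding cluster held 15.7% of the cells, and *Cd74* was found in 27.3% (19.9 to 35.7) of them. After thinning, *Cd74* was found in 17.6% (11.5 to 25.2) of cluster 3, 6.51% of cluster 1 and 2.83% of cluster 2. *Cd274* was found in 17.3% (11.4 to 24.6) of cluster 3 against 11.5% (9.26 to 14.1) elsewhere, with overlapping intervals.

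**Figure D4:**
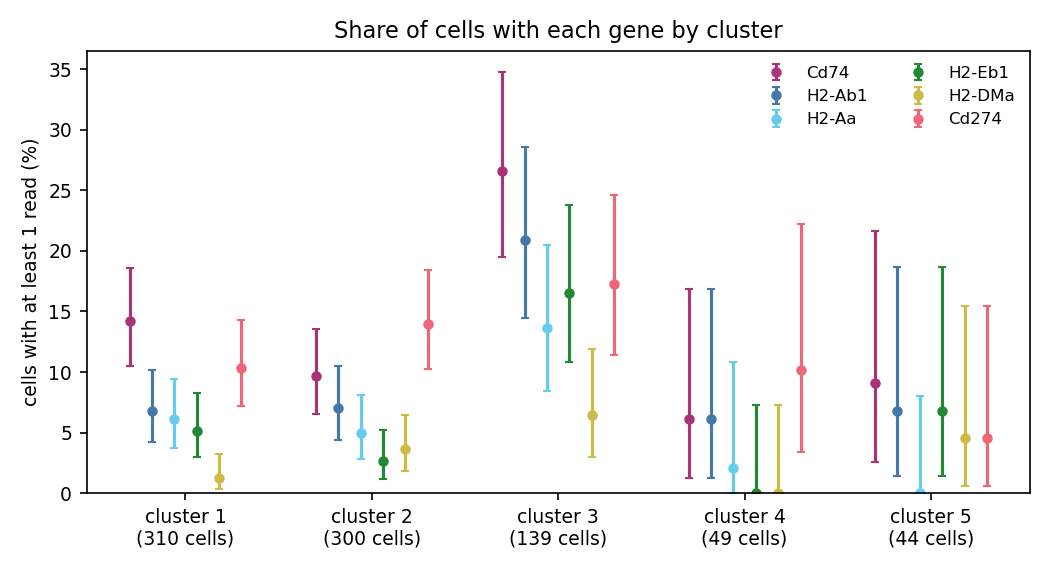
Share of cells with at least 1 read of *Cd74*, *H2-Ab1*, *H2-Aa*, *H2-Eb1*, *H2-DMa* and *Cd274* in each of the 5 clusters, with 95% exact intervals. *Cd74* stands at 26.6% in cluster 3 and between 6.12% and 14.2% in the other clusters. Its interval in cluster 3, 19.5 to 34.8, overlaps that in cluster 5, 2.53 to 21.7. For every other gene shown, the interval of cluster 3 also overlaps that of some other cluster. The intervals of *Cd274* overlap in all 5.

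*Cd274* was also counted in finer clusters. At the default resolution, which gave 7 clusters, 42 cells formed a cluster led by the interferon-induced genes *Usp18*, *Isg15* and *Ifit1*. *Cd274* was found in 14 of them, 33.3% (19.6 to 49.5), and *Cd74* in 3, 7.14% (1.498 to 19.5). In the cluster led by *Tgfbi*, *Tnc* and *C3*, *Cd274* was found in 5.58% (2.92 to 9.55) of the cells. The other 5 clusters had shares from 4.65% (0.568 to 15.8) to 16.1% (11.5 to 21.7), and the interval of the interferon cluster overlapped those of 3 of them. With cells at 20000 reads, the share of *Cd274* in the interferon cluster was 26.8% (14.2 to 42.9).

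Cells with *Cd274* were also split from those without. *Gbp2*, an interferon-induced GTPase, was found in 57.1% (47.1 to 66.8) of the cells with *Cd274* and in 36.4% (32.9 to 39.95) of those without. After thinning, the *Gbp2* shares were 37.7% and 26.4%, with overlapping intervals. Of 19 type I interferon genes, 1 was at least 2-fold higher and none lower, with a median log2 ratio of 0.74. Of 18 interferon-gamma genes, 3 were higher and none lower, with a median of 0.45, and of 21 class I genes none passed, with a median of 0.28. Over all genes the median was -0.01, with 0.107% higher and 0.0699% lower. The median depth was 575355 reads with *Cd274* and 317771 without.

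The rest of the pathway was compared between cells with and without *Cd74* in the same way. None of 21 class I genes, 19 regulators of class II transcription, 18 interferon-gamma genes or 19 type I interferon genes was 2-fold apart in either direction, and their median log2 ratios were 0.16, -0.09, 0.16 and -0.06. As 0.186% of all genes were higher and 0.0886% lower, a count of 0 in lists of this size says nothing particular about them. *Rfx5*, which encodes the X box factor subunit, was found in 5.23% of all cells, *Rfxank* in 17.8% and *Rfxap* in 12.2%. *Irf1* was found in 94.02% (88.1 to 97.6) of cells with *Cd74* and 82.6% of those without, the receptor gene *Ifngr1* in 74.4% (65.5 to 81.98) and 57.7%, and *Ifngr2*, the gene of its partner chain, in 23.9% (16.5 to 32.7) and 30.9%. By mean level *Irf1* stood at 5.57 reads per 10000 with *Cd74* and 6.76 without, a log2 ratio of -0.27, and 63.3% of all genes had a higher share with *Cd74*. Among other class II genes, *H2-DMb2*, *H2-Oa*, *H2-Ob* and *H2-Eb2* had no read in any cell. *Ctss*, a protease that trims the invariant chain, had a log2 ratio of 2.55, which was -0.02 without the 2 wells, and was found in 10 cells, while *Ctsl* was found in 97.03%.

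Genes of the co-inhibitory and co-stimulatory lists differed widely in frequency. Of the co-inhibitory list, *Cd47*, *Nectin2*, *Lgals9* and *Vsir* were found in 99.4%, 94.8%, 86.8% and 72.7% of the cells, and none of the 16 tested was 2-fold apart between cells with and without *Cd74*, beside 0.275% of all genes. Of the co-stimulatory list, *Cd40* was found in 25.5%, *Icosl* in 2.26% and *Tnfsf9* in 0.238% of cells, and none of 3 tested was 2-fold apart, beside the same 0.275%. *Lag3*, a receptor for class II molecules, was found in 16.2% of cells with *Cd74* and 22.9% of those without, at a log2 ratio of -1.09. *Pdcd1*, which encodes PD-1, was found in 1.54% of all cells.

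The sum over markers was compared between cells with and without *Cd74* for the immune list and the dendritic cell and macrophage list. Over the 10 immune markers it ran from 0 through a median of 2.53 to 79.6 reads per 10000 in cells with *Cd74*, and from 0 through 2.61 to 22.3 in cells without. Over 11 dendritic cell and macrophage markers it ran from 0 through 0.0311 to 287.5 and from 0 through 0.00826 to 14.4. Apart from the 2 wells, the highest sums in cells with *Cd74* were 18.2 and 19.3. Of these lists, *Ptprc* and *Ccr7* were at 0 in all cells, 4 of 9 and 4 of 10 tested markers were 2-fold higher with *Cd74*, beside 0.186% of all genes, and 0 and 0 were once the 2 wells were left out, beside 0.0839%. *Arhgdib*, in 78.1% of the cells, and *Srgn*, in 23.6%, made up much of the immune sum. The 8 LEC markers summed to medians of 53.2 and 53.7. Of the Schwann list, 1 of 4 tested markers was 2-fold higher with *Cd74* and none lower, beside 0.186% and 0.0886% of all genes. That marker was *Mbp*, found in 11 cells. No tested marker of the B cell, T or NK cell, blood endothelial, fibroblast, epithelial or mural lists was 2-fold apart.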

How the data were processed

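The authors sorted CD31+ PDPN+ cells, made Smart-seq3 libraries, and per the submitters' processing notes used STAR, featureCounts of Subread, mm10 and Seurat 4.1.0. The authors kept wells with 2000 genes or more and at most 10% of mitochondrial reads. The labels list 1536 wells, and the matrix holds 842 cells. The deposited values are on the natural log scale, ln(1 + reads per 10000), although the methods name log2: the sum of 10000 per cell came back with the natural log alone. Strand, multi-mapping and annotation settings are not given in the sources used here.

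Whole reads were recovered from 100% of values above 0 (within 0.01 reads), with 7433 to 3524358 reads per cell. A gene was found in a cell with at least 1 read. *Cd74* was found in 117 cells and not in 725, *Cd274* in 105 and not in 737. For equal depth, 20000 reads were drawn from each of 791 cells, 50 with *Cd74* and 741 without, and 51 cells with fewer reads were dropped. Folds are log2 ratios of mean reads per 10000 with a pseudocount of 0.1, over genes in at least 3 cells, and a gene was called past 2-fold. Clusters came from Seurat 5.3.0 in R 4.3.3 (2000 variable genes, 15 principal components, smallest resolution in steps of 0.05 giving 5 clusters), and a marker counted as raised at a log2 ratio of 0.3 in at least 30% of the cells. No doublet caller was run. Gene coordinates and exon lengths are from GENCODE M21 on GRCm38. Python 3.11.15, NumPy 2.4.6, pandas 2.3.3, SciPy 1.17.1 and Matplotlib 3.10.9 were used. The fold, interval and thinning steps were tested on simulated data. Known folds were simulated only in genes with higher mean levels than the members other than *Cd74*, and the interval was tested at a single share.

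The members and lists were chosen with earlier results of these data known. Besides the members, genes named are up to 4 per list with the highest means, the 10 most like *Cd74*, the 10 highest and 10 lowest ratios, and the 10 cells with most *Cd74*. *Rfx5*, *Rfxank*, *Rfxap*, *Ifngr2*, *Ctss*, *Gbp2*, *Cdh5*, *Prox1*, *Ptprc*, *Ccr7*, the class II genes at 0 and the leading genes of clusters were also named, after their values were seen, and so was the distance of 15 to 40 bases between boxes. Alternatives changed the reads or value needed to call a gene found, the depth, the cells kept, pseudocount, filter, fold and clustering.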

Additional observations from a re-analysis of the deposited data

How the results depend on the processing

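All cells are 1 sample, so no replicate could be left out. No paired analysis was possible because the result comes from no test and the columns carry no replicate numbers. The share of cells with *Cd74*, 13.9%, became 4.39% when only values above 1 counted, 6.32% at 20000 reads and 6.08% at 20000 reads without cells with at least 5 immune markers. The median share of the other members, 5.94%, became 1.66%, 4.42% and 4.18% under the same settings. The count of members found more often with *Cd74* was 6 or 7 of 7 under every alternative tried. In the main setting 63.3% of all genes were also found more often with *Cd74*, and this share was not computed for the alternatives. The median over the members of the mean natural-log value was 0.0568. It became 0.0308 when only values above 1 counted, and was no lower than 0.0473 under the other alternatives. Of the shares of single genes other than *Cd74*, 34 stayed within the main interval and 15 fell below it, all 7 when only values above 1 counted, *H2-Aa*, *H2-Ab1* and *Cd274* at 20000 reads, and these 3 with *H2-Eb1* and *H2-DMa* at 20000 reads without cells with at least 5 immune markers. Asking for 2 reads could move these shares little, as each gene had at most 2 cells with a single read.

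The share of genes 2-fold apart depended most on the settings. It was 0.275%, and became 0.0233% with a pseudocount of 1, 8.54% with 0.01, 0.268% over the fewer genes in at least 5% of cells (31 genes in place of 59), 3.01% at 1.5-fold, 2.92% at 20000 reads, 3.12% with cells split at a *Cd74* value of 1, and 0.00466% when mean natural-log values were subtracted. The share of called genes that were higher was 67.8%, 40.1% with a pseudocount of 0.01, 45.2% over genes in at least 5% of cells, 48.7% at 1.5-fold, 47.02% at 20000 reads, 47.5% with the split at 1, and 37.5% and 42.9% without cells with at least 3 or 5 immune markers. With a pseudocount of 1 and when natural-log values were subtracted, all called genes, 5 and 1, were higher. The 5 members past 2-fold, which include *H2-DMb1* with its value set by the pseudocount, became 3 with a pseudocount of 1, over genes in at least 5% of cells (which leaves out *H2-DMa*, *H2-DMb1* and *Ciita*), and without cells with at least 3 or 5 immune markers, and 0 when natural-log values were subtracted. Leaving out cells with at least 5 immune markers, alone or with thinning, was chosen after seeing the data. The highest share of *Cd74* in a cluster, 26.6%, became 17.6% at 20000 reads.

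A gene missed in a shallow cell cannot be told apart from one not expressed.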

Other observations

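Outside the class II genes, the cells with *Cd74* differed most in these genes among those found in at least 10% of cells. The highest log2 ratios were 1.36 for *Apoe*, an apolipoprotein gene, 1.32 for *Fcer1g*, which encodes the gamma chain of Fc receptors, and 1.04 for *C1qtnf7*. Without the 2 wells with immune markers *Apoe* stood at -0.58 and *Fcer1g* at 0.64, while *C1qtnf7* stood at 1.04. *Thrsp*, at 0.96, was found in 19.7% of cells with *Cd74* and 8.69% of those without. The lowest ratios were -1.57 for *Fndc1*, -1.47 for the metallothionein gene *Mt1* and -1.30 for *Tppp3*, and these were -1.59, -1.54 and -1.27 without the 2 wells. *Fndc1* and *Tppp3* were among the leading genes of cluster 4, where *Cd74* was found in 6.12% of 49 cells.

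Other genes were ranked by likeness to *Cd74*, by Pearson's r of natural-log values across all cells. The members, the immune marker lists, mitochondrial genes and genes found in under 5% of cells were left out of this ranking. The highest were *Bpifa1* (0.27) and *Tmem119* (0.26), followed by the class I gene *H2-Q6* (0.21), *Bak1* (0.21), *B2m* (0.20) and the water channel gene *Aqp1* (0.20). Then came *Rps2-ps13* (0.19), *Tspyl4* (0.19), *Stab2* (0.18), which encodes a scavenger receptor, and *Gm26857* (0.18). Without the 2 wells r was 0.05 for *Bpifa1*, 0.21 for *Tmem119*, 0.24 for *H2-Q6* and 0.22 for *Stab2*. The cells share depth, and reads of *H2-Q6* can be split with its near-identical class I neighbours. Values this low in sparse counts are a description only.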
